A study of Mus musculus with 44 samples.

Results

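The libraries described here are the alveolar macrophages (labelled AM) sorted from mouse lungs at 14 days (D14) and at 7 days (D7) after bleomycin, in recipients of young bone marrow. They are 6 of the 44 libraries of the series, 3 at D14 and 3 at D7. They were chosen by their place in the deposited count table, D14 as data columns 8 to 10 and D7 as data columns 11 to 13, and no measured value entered that choice. Per the labels and the series design, young mice of the Bl6 background carried transplanted marrow of young donors, and all of them were given bleomycin into the trachea at 1 U/kg before cells were sorted from the lung. Every one of the 44 libraries is labelled as lung fibrosis, so the comparison is between 2 times after injury and has no uninjured group. The sources used here do not say how the recipients were prepared, how AM were gated, or whether the sorted cells descended from donor or host. It is likewise not stated if replicates were different animals, so a p-value measures the spread between these libraries, which may be technical. A further 4 AM libraries of D7, from recipients of aged marrow, entered the fit of the day comparison to share the estimate of spread. They were not compared.

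Alveolar macrophages live in the air spaces of the lung, where they take up inhaled particles and surplus surfactant lipid. In the undisturbed lung they renew themselves largely without help from the marrow, under the control of the growth factor GM-CSF and the lipid-sensing nuclear receptor PPAR gamma, and they carry Siglec-F, carbonic anhydrase 4 and the scavenger receptor MARCO. Bleomycin injures the alveolar lining, and blood monocytes then enter and become macrophages, among which cells rich in osteopontin (Spp1), matrix genes and growth factors are known from fibrotic lungs. The design compared D7 and D14, which fall in the inflammatory and the early fibrotic period of this model.

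The column headers printed in the table name other libraries than the positions do, for all 44 columns. Sorting the 44 headers bytewise and giving the title of the header at each place to the data column at the same place gave the assignment used here. Under the printed headers, columns 8 and 9 would be MoAM D7 young 3 and 4, column 10 MoAM D7 aged 1, and columns 11 to 13 MoAM D7 aged 2, 3 and 4, MoAM being the second labelled macrophage population. Lineage genes went with the positions and against the headers. By position, the 13 libraries labelled AM were the 13 highest of the 44 in Siglecf, a lectin of alveolar macrophages and eosinophils, and also the 13 highest in Car4. By printed header, 0 of the 13 libraries labelled AM were among the 13 highest in either gene. Siglecf lay between 73.6 and 247 CPM (counts scaled to a common library total) in AM by position and at most at 32.96 CPM in MoAM. Cd3e, of the T cell receptor complex, pointed the same way: 11 of the 12 highest libraries were T cell sorts (CD25pos or CD25neg) by position, against 1 of 12 by header. Ly6c2, of classical monocytes, was highest in the 5 libraries labelled Monocytes by position and in 0 of 5 by header. C1qa, checked for MoAM, was less clear. By position 11 of the 14 MoAM libraries were among the 14 highest, against 0 of 14 by header. Its maximum by position was 2588 CPM in MoAM and 3417 CPM in CD25pos libraries. These genes bear on the population only. The day and the marrow age of each AM column rest on the header sort alone.

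**Figure D1:**
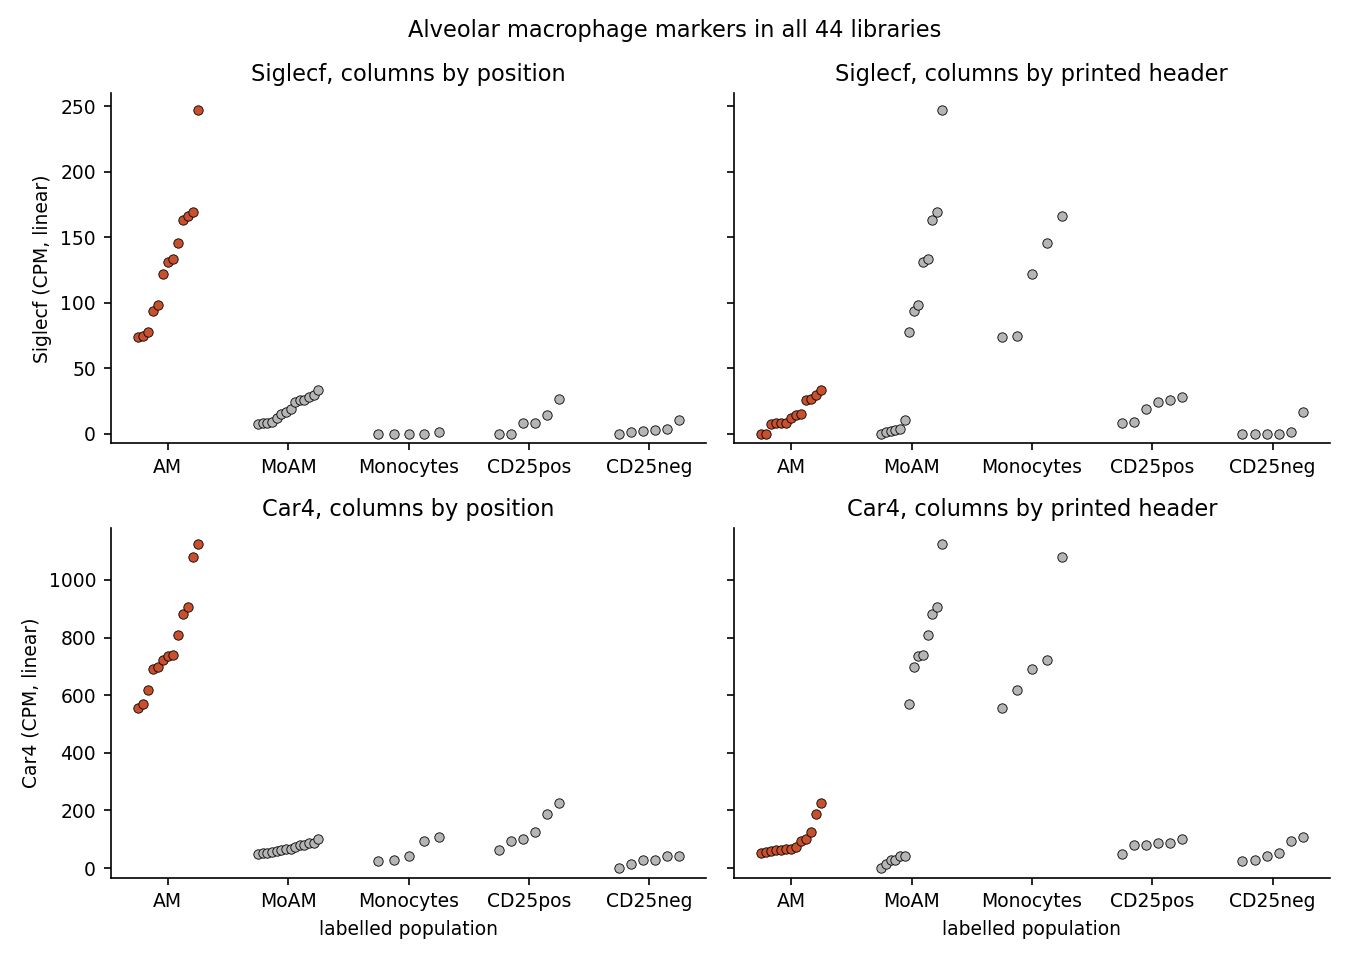
Siglecf (top) and Car4 (bottom) in CPM on a linear axis for the 44 libraries by labelled population, with columns assigned by position (left) or by printed header (right). Each point is 1 library, sorted by level within a population, and AM is in orange. By position all 13 AM libraries lie above every other library, between 73.6 and 247 CPM for Siglecf and between 556 and 1124 CPM for Car4.

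Total counts were 365949, 381094 and 1198138 in the D7 libraries and 1764514, 2569523 and 3114658 in the D14 libraries, so depth did not overlap between the days. Mitochondrial transcripts took 2.83% to 3.22% of counts at D7 and 3.20% to 3.63% at D14, and ribosomal protein genes 5.50% to 6.41% and 4.06% to 4.99%. Over the whole series totals ran from 126283 to 9921734. In the edgeR quasi-likelihood test, fitted over 10 AM libraries with the 4 of aged marrow at D7, 700 of 7599 genes differed between the days. The adjusted p was below 0.05 for these 700, which are 9.21% of the genes tested. Of these, 326 were higher at D14 (4.29%) and 374 were lower (4.92%). For 686 of the 700 the 3 D14 and 3 D7 libraries did not overlap, and 1617 genes had an unadjusted p below 0.05. The 700 were called from these same libraries, so their lack of overlap is no separate support. The share without overlap among all genes tested is not given here. A fit of the 6 libraries alone gave 1097 calls among 8656 genes tested. Leaving out D7 library 3 gave 439 calls, and leaving out D14 library 1, 2 or 3 gave 458, 446 and 407. With every library thinned to the smallest total of the 6, an alternative chosen after the data were seen, 440 genes were called, of which 414 were among the 700 with the same direction. Throughout, a gene is said to rise or fall only if it passed this test, CPM are scaled by TMM (a correction for library composition) unless called unscaled, and ± gives the SD of 3 libraries.

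**Figure D2:**
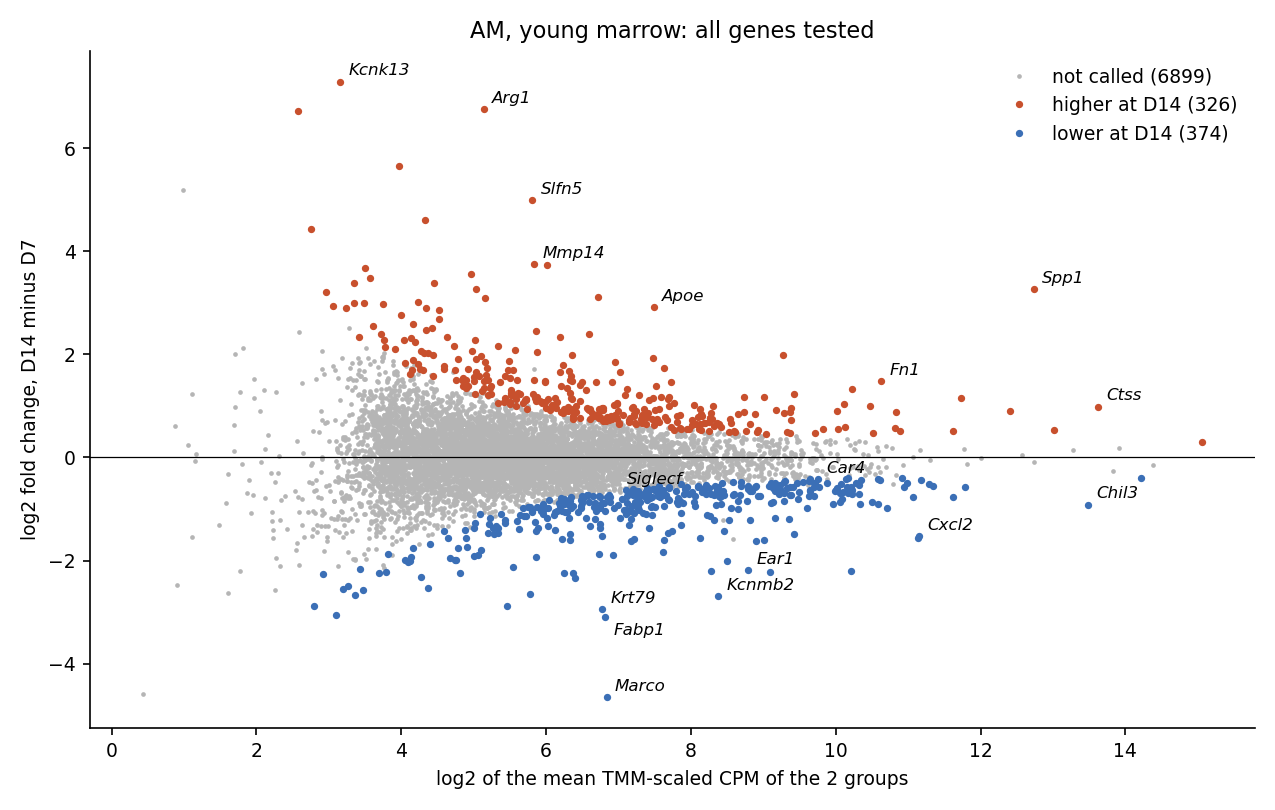
Log2 fold change of D14 over D7 against the log2 of the mean TMM-scaled CPM for the 7599 genes tested. Each point is a gene, with 326 higher at D14 in orange, 374 lower in blue and 6899 not called in grey. Spp1 lies far to the right among the genes higher at D14, and Marco is the lowest of the called genes.

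Of the 4 genes given as markers of the population, Siglecf and Car4 changed little, whereas Marco fell and Spp1 rose steeply. Spp1 did not set AM apart from the other sorts by position. Unscaled, it was at 985 to 15950 CPM in AM, 1714 to 8974 CPM in MoAM and 1592 to 4656 CPM in CD25pos libraries. Marco, the collagen-like scavenger receptor of alveolar macrophages, was at 169, 250 and 241 CPM at D7 and at 7.72, 8.97 and 9.29 CPM at D14. All 3 D7 libraries were far above all 3 D14 libraries, a 25.1-fold fall (log2 -4.65, SE 0.27, edgeR adjusted p = 4.02e-20). Spp1, which encodes the secreted matrix protein osteopontin, was at 1288, 1596 and 1014 CPM at D7 and at 15520, 10410 and 11190 CPM at D14. The lowest D14 library was thus well above the highest D7 library, with means of 1299 ± 291 and 12370 ± 2754 CPM and a 9.57-fold rise (log2 3.26, SE 0.15, adjusted p = 2.44e-18). As these are bulk samples, fewer cells that make a transcript and less of it per cell cannot be told apart, here or in any result below. Car4, the membrane-bound carbonic anhydrase, was at 921, 865 and 1158 CPM at D7 and at 788, 737 and 695 CPM at D14. Its groups did not overlap and it fell by 0.42 on the log2 scale (SE 0.14, adjusted p = 0.048 by edgeR), a call kept without D7 library 2 but lost without any other of the 6 libraries. Siglecf was at 133, 160 and 174 CPM at D7 and at 75.5, 134 and 93.5 CPM at D14. D14 library 2 lay just above the lowest D7 library, and the log2 difference of -0.64 (SE 0.24) had an adjusted p of 0.0892. It was called at -0.65 in the fit of the 6 libraries alone (adjusted p = 0.0247 by edgeR), at -0.69 with limma voom and at -0.88 without D14 library 2. Unscaled, Marco was at 186 to 451 CPM in the 4 AM D7 libraries of aged marrow and at 1.82 to 10.9 CPM in the 3 AM D14 libraries of aged marrow, which were not compared here. In those libraries Spp1 lay closer together, at 3343 to 4036 CPM at D7 and 9174 to 11430 CPM at D14. In young marrow its unscaled range was 985 to 1627 CPM at D7 and 10390 to 15950 CPM at D14.

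**Figure D3:**
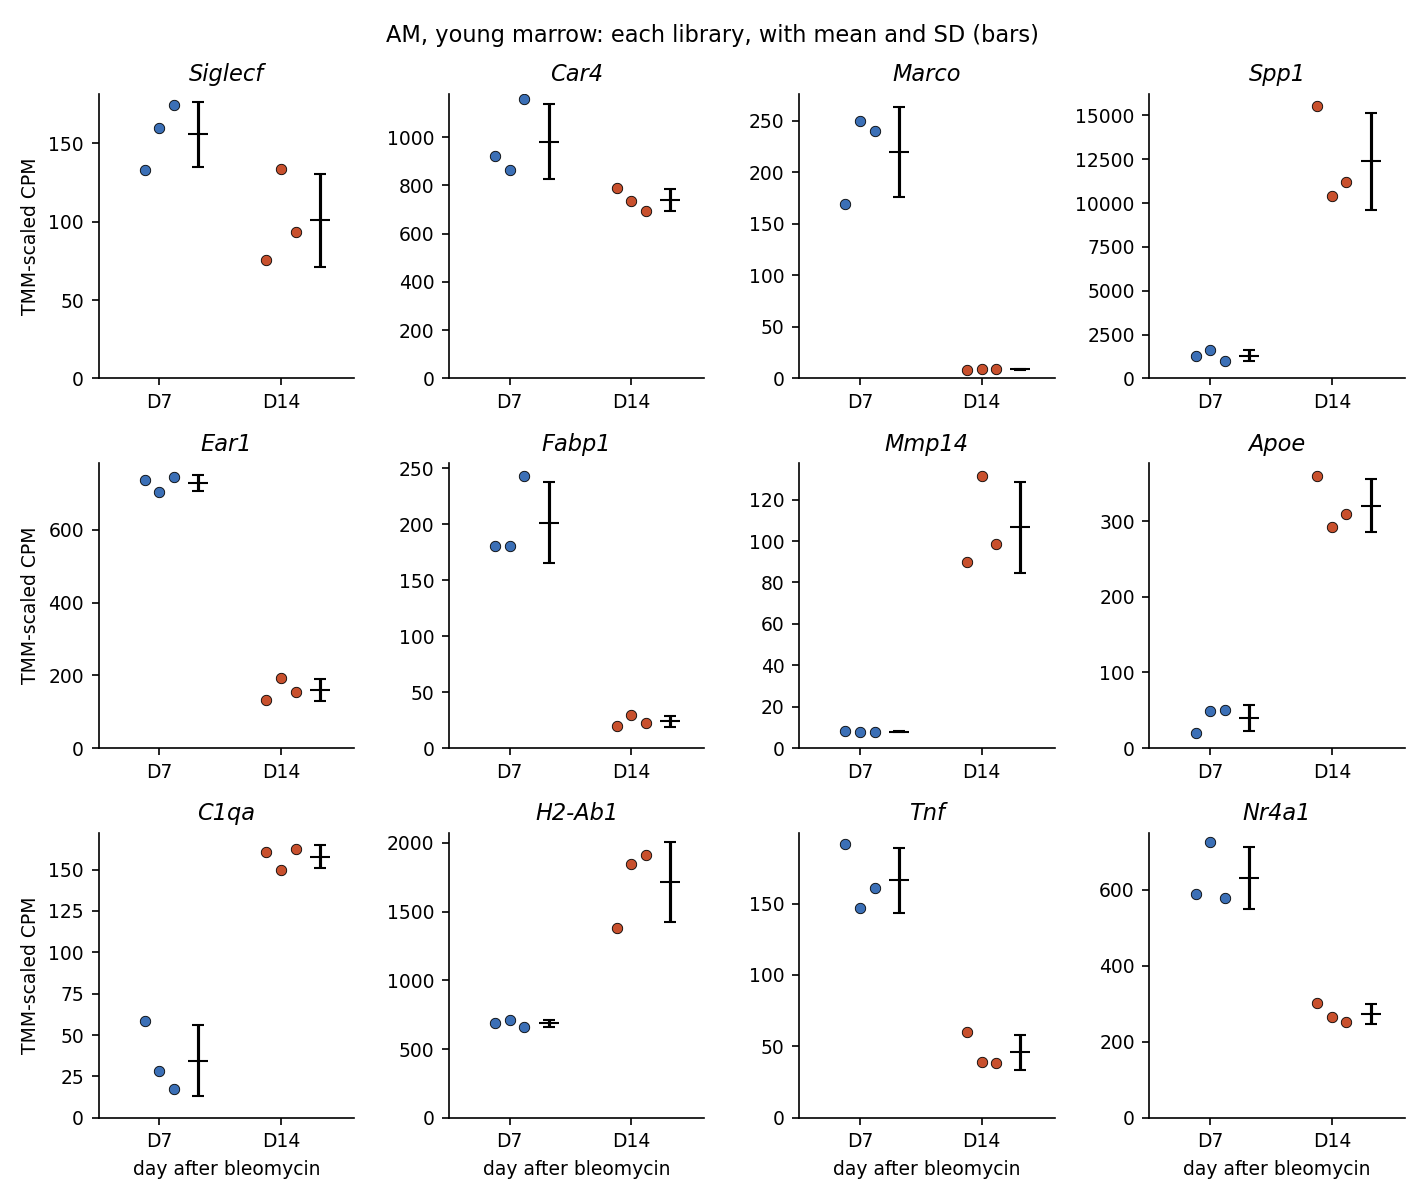
TMM-scaled CPM of 12 genes in each of the 3 D7 (blue) and 3 D14 (orange) AM libraries of young marrow, on linear axes from 0, with the mean and SD as black bars. The D7 and D14 points are apart for every gene drawn except Siglecf, where D14 library 2 reaches the lowest D7 library.

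The list of genes that identify resident alveolar macrophages moved downward in part. Of its 25 members, all tested, 11 were lower at D14 (44%, against 4.92% of all genes tested), 3 were higher (12%, against 4.29%) and 11 did not pass, with a median log2 change of -0.37 beside -0.0068 over all genes. Summed over the list, unscaled levels were 34942 to 36658 CPM at D7 and 24772 to 27462 CPM at D14. Members and lists, here and below, were chosen with earlier results of these data known. Their shares beside those of all genes describe these libraries and are no test. Fabp1, a fatty acid binding protein, was at 180, 180 and 243 CPM at D7 and at 19.9, 29.2 and 22.4 CPM at D14. That is an 8.5-fold fall without overlap (log2 -3.09, SE 0.25, edgeR adjusted p = 1.41e-14). Krt79, a keratin, was at 208, 167 and 205 CPM at D7 and at 33.1, 19.1 and 24.7 CPM at D14, a 7.67-fold fall (adjusted p = 2.31e-07 by edgeR). Ear1, an eosinophil-associated ribonuclease that alveolar macrophages also make, was at 738, 703 and 746 CPM at D7 and at 131, 193 and 154 CPM at D14. Its groups were again apart, by 4.57-fold (log2 -2.19, SE 0.15, adjusted p = 3.39e-17). Chil3, a chitinase-like protein, was the most abundant of the falling members, with 14880, 14460 and 15760 CPM at D7 and 7099, 8744 and 8069 CPM at D14, a 1.89-fold fall (adjusted p = 2.08e-10 by edgeR). Cidec, a lipid droplet protein, Plet1, Il18, Krt19 and the mannose receptor Mrc1 also fell. The Mrc1 call (log2 -0.49) was lost without D14 library 2 or 3, and Krt19 was called although its groups overlapped.

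The 11 members that did not pass included transcription factors and growth factor receptors. Bhlhe40, a transcription factor, had a log2 difference of -0.37 with an adjusted p of 0.10 in the edgeR test. Pparg, the nuclear receptor gene, was at 94.3, 170 and 158 CPM at D7 and at 161, 216 and 192 CPM at D14, with overlap and an adjusted p of 0.244. Csf2ra and Csf2rb, the GM-CSF receptor chains, had log2 differences of 0.21 (adjusted p = 0.49) and -0.24 (adjusted p = 0.36) in the edgeR test. Ear2, a close relative of Ear1 whose reads may be shared with it, was at 1460, 1477 and 1698 CPM at D7 and at 1012, 1570 and 1222 CPM at D14, with overlap and an adjusted p of 0.178. The 3 members that rose were Bhlhe41, a repressor with a known role in the self-renewal of these cells (log2 1.16), the fatty acid binding protein Fabp4 (0.56) and the integrin Itgax (0.49). The Itgax call was lost without D7 library 1 or 2 or D14 library 2 or 3, and the Fabp4 call without D7 library 2 or 3 or D14 library 3.

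Of 24 tested members of the profibrotic macrophage list, 14 were higher (58.3%, against 4.29% of all genes tested), 5 were lower (20.8%, against 4.92%) and 5 did not pass, with a median log2 change of 0.84. Arg1, which breaks down arginine to ornithine, had counts of 1 in all at D7 and 553 at D14, or 0, 2.57 and 0 CPM against 36.4, 90.5 and 81.7 CPM. The pooled ratio was 144, with a 95% counting interval of 25.8 to 5710, and the edgeR adjusted p was 1.97e-09. Mmp14, a membrane-bound protease that opens collagen and activates other matrix proteases, was at 8.32, 7.72 and 7.73 CPM at D7 and at 89.9, 131 and 98.7 CPM at D14. The D7 libraries were nearly equal and all D14 libraries were above them, by 13.4-fold (log2 3.75, SE 0.41, adjusted p = 3.78e-10). Fn1, fibronectin, was at 874, 875 and 758 CPM at D7 and at 2429, 2136 and 2399 CPM at D14, a 2.79-fold rise without overlap (adjusted p = 1.29e-12 by edgeR). Apoe, the lipid carrier, was at 19.4, 48.9 and 49.8 CPM at D7 and at 360, 292 and 309 CPM at D14, again without overlap and 7.56-fold higher (adjusted p = 2.94e-09).

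Smaller rises were seen in other members of that list. Gpnmb, a glycoprotein of lipid-laden macrophages, rose 1.90-fold, Trem2, a receptor for lipids and cell debris, 1.94-fold, and Mmp12, the macrophage elastase, 2.13-fold (edgeR adjusted p = 4.55e-06, 0.00376 and 0.00335), the last not called without D14 library 1. The tetraspanin Cd9 was at 2578, 2589 and 2592 CPM at D7 and at 3765, 3412 and 3877 CPM at D14, a 1.42-fold rise without overlap. Fabp5 rose 1.45-fold, a call lost without D7 library 2 or D14 library 1 or 2. The 5 members that fell were Plin2, of lipid droplets, the fatty acid transporter Cd36, the galectin Lgals3, the matrix protein gene Sparc and the lysosomal protease Ctsd. Lgals3 was at 2015, 2072 and 2566 CPM at D7 and at 1039, 1225 and 1100 CPM at D14 (log2 -0.99). Ctsd was low in all 6 libraries, with 13.8 to 33.5 CPM at D7 and 3.86 to 5.45 CPM at D14.

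Growth factors for mesenchymal cells moved in both directions. Pdgfa, a ligand of the PDGF receptors, had 1 count in all at D7 and 101 at D14, a pooled ratio of 26.4 (counting interval 4.63 to 1050, adjusted p = 0.0107 by edgeR). Igf1 was at 91.6, 167 and 123 CPM at D7 and at 286, 267 and 310 CPM at D14, 2.26-fold higher with no overlap (adjusted p = 1.97e-05). Inhba, the activin A subunit, went the other way, from 144, 121 and 112 CPM to 36.4, 25.7 and 18.3 CPM, a 4.71-fold fall with no overlap (adjusted p = 4.32e-09). Tgfb1 was low and alike on both days, with 63.8, 41.2 and 42.1 CPM at D7, 43.6, 40.5 and 48.7 CPM at D14 and an adjusted p of 0.902. Its receptor chain Tgfbr1 rose 1.66-fold and the co-receptor Nrp2 2.03-fold. In the list of growth factors and receptors 6 of 19 members rose (31.6%, against 4.29% of all genes tested), also Hgf and Csf1r, and 2 fell (10.5%, against 4.92%), Inhba and Vegfa. In the list of matrix genes and proteases 8 of 22 rose (36.4%) and 2 fell (9.09%), beside the same 4.29% and 4.92% of all genes, and the median log2 change was -0.035. Sparc, a collagen-binding matrix protein, was among the falling genes, from 50.5 ± 5.47 to 13.4 ± 3.45 CPM (log2 -1.91, adjusted p = 8.94e-05 by edgeR).

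Of 14 tested members of the list for monocyte-derived macrophages, 7 rose (50%, against 4.29% of all genes), 1 fell (Cd14) and 6 did not pass, with a median log2 change of 1.05. Ccr2, the receptor that guides monocytes out of the marrow, was at 55.5, 20.6 and 27.5 CPM at D7 and at 103, 135 and 149 CPM at D14. All D14 libraries were above all D7 libraries, by 3.95-fold (log2 1.98, SE 0.32, adjusted p = 6.69e-06 by edgeR). Csf1r, the receptor for the macrophage growth factor M-CSF, rose from 121 ± 10.9 to 206 ± 22.2 CPM (log2 0.79, adjusted p = 0.00848 by edgeR). C1qa, of complement C1q, was at 58.3, 28.3 and 17.2 CPM at D7 and at 160, 150 and 163 CPM at D14, 5.25-fold higher without overlap (adjusted p = 7.49e-07). Summed over the 19 list genes in the table, unscaled levels were 803 to 825 CPM in AM at D7 and 1294 to 1341 CPM at D14, with no member at 0 in either group. In the MoAM libraries of young marrow the same sum was 7534 to 7937 CPM at D7 and 8708 to 9549 CPM at D14. The classical monocyte list moved both ways. Of 9 tested members 4 rose (44.4%, against 4.29% of all genes) and 3 fell (33.3%, against 4.92%), namely Chil3, S100a9 and Clec4e. With Chil3 its unscaled sum was 15360 to 15940 CPM in AM at D7 and 8233 to 9790 CPM at D14. For the classical monocyte list without Chil3 (13 genes) the sums were 611 to 743 CPM in AM at D7, 937 to 1157 CPM in AM at D14, and 4688 to 5897 CPM over the 7 MoAM libraries. Ly6c2, the defining marker of that list, was at 22.2, 2.57 and 6.01 CPM at D7 and at 12.1, 16.8 and 30.4 CPM at D14, with overlap and an adjusted p of 0.288. The part of these markers in the other results was not tested.

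In the MHC class II list 6 of 11 tested members were higher (54.5%, against 4.29% of all genes tested), 0 were lower, and the median log2 change was 0.86. H2-Ab1, a class II chain, was at 691, 713 and 658 CPM at D7 and at 1381, 1847 and 1914 CPM at D14, 2.5-fold higher with no overlap (adjusted p = 5.34e-11 by edgeR). Cd74, the invariant chain that escorts class II molecules, rose 2.35-fold from 411 ± 17 to 965 ± 111 CPM, and H2-Aa rose 2.00-fold from 944 ± 131 to 1887 ± 337 CPM. Ciita, the master activator of class II genes, rose from 27.8, 12.9 and 10.3 CPM to 46.9, 53.8 and 44.2 CPM (log2 1.65, adjusted p = 0.0116 by edgeR). Ctss, the cathepsin that trims the invariant chain, was among the abundant transcripts, at 8353, 9117 and 7984 CPM at D7 and at 15840, 17100 and 17390 CPM at D14. Its 1.98-fold rise had a log2 SE of 0.10 and an adjusted p of 1.45e-11. Of 11 complement genes tested 6 rose (54.5%, against the same 4.29%) and 0 fell, with a median of 1.73, and the C1q chains C1qa, C1qb and C1qc, the anaphylatoxin receptor C3ar1 and C4b were among those that rose. The complement count fell to 3 without D14 library 2 and to 2 with the libraries thinned to equal depth. C4b was at 0, 0 and 7.73 CPM at D7 and at 30.3, 39.8 and 17.6 CPM at D14, so its log2 rise of 2.77 became 7.99 without D7 library 3, and reads from its near-identical copy may be included.

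The interferon response list held 23 tested members, of which 10 rose (43.5%, against 4.29% of all genes tested), 0 fell and 13 did not pass, with a median log2 change of 1.25. Type I interferons act through a complex that includes STAT2 and IRF9 and binds a shared element before many antiviral genes, and Stat2, Irf9 and Irf7 were among the members that rose. Isg15, the ubiquitin-like modifier, was at 55.5, 51.5 and 30.1 CPM at D7 and at 88.8, 128 and 137 CPM at D14, 2.79-fold higher with no overlap (adjusted p = 0.000329 by edgeR). Bst2, which tethers budding virus, was at 128, 129 and 102 CPM at D7 and at 272, 242 and 282 CPM at D14, 2.27-fold higher (adjusted p = 2.14e-05). Rsad2, the antiviral enzyme viperin, was at 5.55, 2.57 and 6.88 CPM at D7 and at 31.4, 53.4 and 38.4 CPM at D14, 7.28-fold higher (adjusted p = 0.000125). Stat2 was at 11.1, 23.2 and 16.3 CPM at D7 and at 34.2, 51.1 and 46.4 CPM at D14 (log2 1.38, adjusted p = 0.0445 by edgeR). Rtp4 was at 0, 2.57 and 10.3 CPM at D7 and at 57.4, 62.0 and 63.4 CPM at D14, a log2 rise of 3.26 that became 5.4 without D7 library 3. Ifit2 had 3 counts in all at D7 and 160 at D14, a pooled ratio of 13.9 with a counting interval of 4.68 to 68.2. Cxcl10, a chemokine of the same response, had the only negative difference among the 23, at -1.26 with an adjusted p of 0.086. The count of 10 was sensitive to depth and to single libraries. It was 5 with libraries thinned to equal depth, 6 without D7 library 3 or D14 library 1, 5 without D14 library 2 or 3, and 16 in the fit of the 6 libraries alone. Outside the list, Slfn5 and Slfn8 of the Schlafen family, which interferon is known to induce, were among the largest rises. Slfn5 was at 2.77, 10.3 and 0.859 CPM at D7 and at 81.1, 112 and 129 CPM at D14 (31.9-fold, adjusted p = 1.45e-11), and its log2 rise was 6.24 without D7 library 2 and 4.00 without D7 library 3. Slfn8 had 1 count at D7 and 237 at D14, although reads may be shared between members of this family.

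The promoters of the list's genes were searched for the core of the element that STAT and IRF factors bind, GAAANNGAAA or its reverse complement TTTCNNTTTC, in the 250 bases before the start. Of the 10 genes that rose, 7 had a promoter in the RefSeq table (build GRCm38.p6), and 4 of these held a match. Among all 6166 tested genes with a promoter in the table the share was 3.42%, and among all 32851 single promoter windows of that length 2.98%. Of the 13 tested members that did not pass, 12 had a promoter in the table and 7 held a match, so the share was 57.1% among those called and 58.3% among those not called. Only the 4 promoters with a match are shown. Ifit2, Irf7 and Irf9, which also rose, had promoters in the table without a match, and those are not shown. Each runs 5′ to 3′ on the strand of the gene, with matches in capitals.
Isg15 (chr4:156200819-156201068, minus strand): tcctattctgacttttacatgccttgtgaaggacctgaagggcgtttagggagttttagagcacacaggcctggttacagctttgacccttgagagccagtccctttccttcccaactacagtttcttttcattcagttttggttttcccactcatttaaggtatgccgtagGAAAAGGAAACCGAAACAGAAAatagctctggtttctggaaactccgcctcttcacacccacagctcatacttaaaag
Bst2 (chr8:71537473-71537722, minus strand): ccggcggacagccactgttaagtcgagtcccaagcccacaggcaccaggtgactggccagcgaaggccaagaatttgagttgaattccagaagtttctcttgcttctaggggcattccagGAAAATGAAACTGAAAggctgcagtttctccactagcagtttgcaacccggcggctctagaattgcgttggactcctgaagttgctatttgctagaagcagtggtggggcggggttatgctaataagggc
Rsad2 (chr12:26456453-26456702, minus strand): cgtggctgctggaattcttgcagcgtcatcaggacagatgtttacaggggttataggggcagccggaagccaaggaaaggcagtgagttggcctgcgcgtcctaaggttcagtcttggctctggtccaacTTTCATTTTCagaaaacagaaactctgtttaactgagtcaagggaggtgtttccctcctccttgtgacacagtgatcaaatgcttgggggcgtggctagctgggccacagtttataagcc
Stat2 (chr10:128270248-128270497, plus strand): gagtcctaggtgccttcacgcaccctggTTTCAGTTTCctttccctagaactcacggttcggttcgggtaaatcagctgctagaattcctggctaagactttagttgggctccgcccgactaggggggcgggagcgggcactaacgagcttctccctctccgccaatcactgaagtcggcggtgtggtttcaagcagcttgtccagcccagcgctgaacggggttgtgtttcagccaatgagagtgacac
Isg15 held 3 overlapping matches between 78 and 57 bases before the start, Bst2 held 2 overlapping matches between 130 and 115 bases before it, and Rsad2 and Stat2 held 1 each. A match is a string of letters and not a measured binding site.

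Of 23 cytokine and chemokine genes tested, 8 were lower at D14 (34.8%, against 4.92% of all genes), 2 were higher and 13 did not pass, with a median log2 change of -0.63. The count of 8 became 5 without D14 library 2. Tnf was at 192, 147 and 161 CPM at D7 and at 60.1, 39 and 38.1 CPM at D14, 3.66-fold lower with no overlap (log2 -1.87, SE 0.26, adjusted p = 1.58e-07). Nfkbia, the inhibitor that NF-kappa B itself induces, was at 3527, 3516 and 3011 CPM at D7 and at 1342, 1015 and 1033 CPM at D14, 2.96-fold lower (adjusted p = 4.16e-15 by edgeR). Cxcl2, which draws neutrophils, was at 3388, 3179 and 3564 CPM at D7 and at 1900, 782 and 858 CPM at D14. D14 library 1 stood above the other 2 of its group, and the 2.87-fold fall (adjusted p = 0.0155) was not called without D7 library 2 or 3 or in the fit of the 6 libraries. Il1b fell 1.58-fold and Il1a 2.26-fold, calls lost without D14 library 2. Nlrp3, the inflammasome sensor, fell 2.26-fold from 180 ± 6.95 to 80.1 ± 12.3 CPM (adjusted p = 0.000115 by edgeR). Il1rn, the natural antagonist of interleukin-1, and Ccl4 fell too. The members that rose were Ccl17 and Ccl9, while Ccl2 had a log2 difference of 0.27 with an adjusted p of 0.816.

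The immediate early list, genes that cells switch on within minutes of a stimulus, of stress or of tissue handling, held more falling than rising members. Of 32 members tested 14 were lower at D14 (43.8%, against 4.92%), 1 was higher (Socs3, whose groups overlapped) and 17 did not pass, with a median log2 change of -0.44. Nr4a1, an orphan nuclear receptor, was at 588, 726 and 578 CPM at D7 and at 302, 264 and 252 CPM at D14, 2.31-fold lower with no overlap (adjusted p = 1.01e-07 by edgeR). Nr4a2 was at 544, 476 and 513 CPM at D7 and at 271, 152 and 153 CPM at D14, 2.68-fold lower. The AP-1 genes Junb and Fosb fell 1.86-fold and 1.65-fold (adjusted p = 8.22e-07 and 0.000263). Fosl1, another AP-1 gene, was low, at 19.4, 7.72 and 18.9 CPM at D7 and at 1.65, 0 and 3.52 CPM at D14, and its call was lost without D7 library 1. It was tested in only 2 of the 6 fits that left out a library. Fos (log2 0.31, adjusted p = 0.20), Jun (-0.28, 0.35), Ier2 (0.11, 0.88) and the heat shock gene Hspa1a (-0.24, 0.79) did not pass the edgeR test. How long the tissue was handled on each day is not given in the sources used here, and its part in these differences was not tested.

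**Figure D4:**
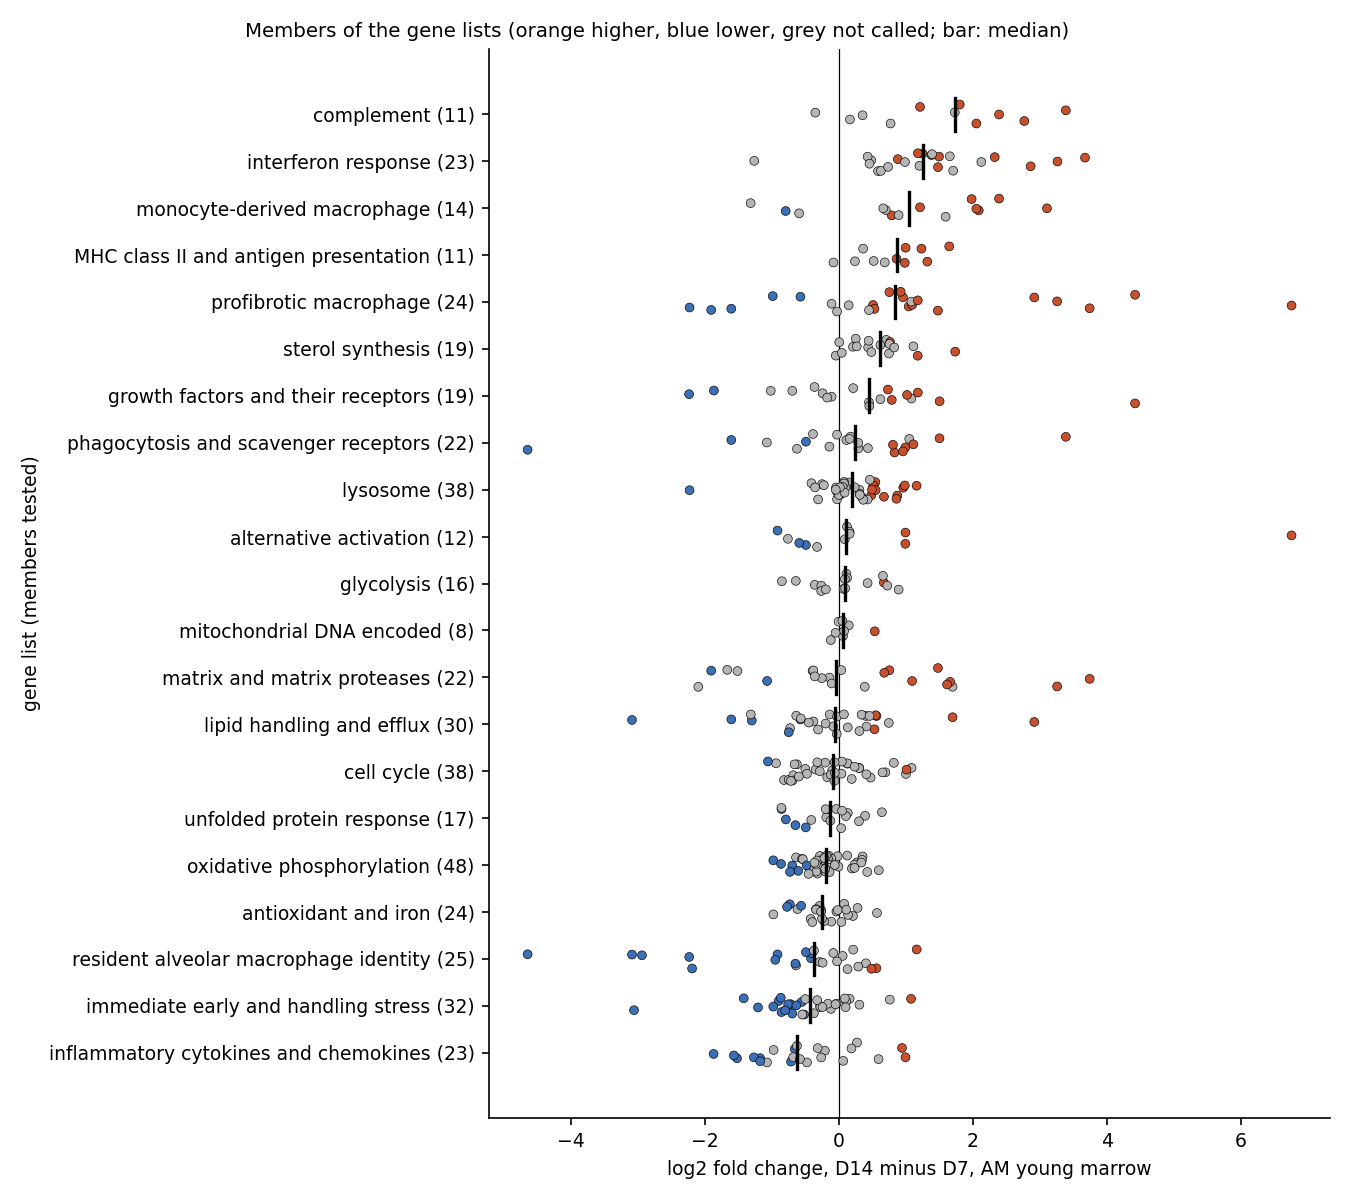
Log2 fold change of D14 over D7 for the tested members of 21 gene lists, ordered by their median. Each point is a gene, orange if higher, blue if lower and grey if not called, the black bar is the list's median, and the number tested stands in brackets. Complement, interferon, monocyte-derived and MHC class II genes lie mostly to the right of 0, and inflammatory, immediate early and resident identity genes mostly to the left.

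In the list of lipid handling 5 of 30 members rose and 5 fell (16.7% each, against 4.29% and 4.92% of all genes tested), with a median log2 change of -0.057. Cd36, which imports fatty acids and oxidised lipoprotein, was at 294, 355 and 245 CPM at D7 and at 119, 95.5 and 77.5 CPM at D14, 3.04-fold lower with no overlap (adjusted p = 4.53e-09 by edgeR). Angptl4, an inhibitor of lipoprotein lipase that fatty acids induce, was at 144, 160 and 153 CPM at D7 and at 66.7, 59.6 and 59.6 CPM at D14, 2.46-fold lower (adjusted p = 5.10e-05). Acaa1b, a peroxisomal thiolase outside the list, fell 5.76-fold. Against these, Apoe and Mylip, which degrades the LDL receptor, were among the genes that rose. In the sterol synthesis list 4 of 19 members rose (21.1%, against 4.29%) and 0 fell, with a median of 0.62. Hmgcs1, which makes the HMG-CoA that feeds the pathway, was at 161, 118 and 137 CPM at D7 and at 242, 212 and 239 CPM at D14. The groups did not overlap, and the 1.67-fold rise had an adjusted p of 0.00791 in the edgeR test, a call lost without D7 library 2. Mvd, a later enzyme of the pathway, rose 1.70-fold (adjusted p = 0.0254 by edgeR), a call lost in 5 of the 6 fits that left out a library. Neither was called at equal depth, where 1 sterol gene was. The sterol count was 2 without D7 library 2 or 3.

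Of 38 lysosomal genes tested, 11 were higher (28.9%, against 4.29% of all genes), 1 was lower (Ctsd) and 26 did not pass, with a median log2 change of 0.19. Psap, the precursor of the saposins that help digest sphingolipids, was at 2331, 1727 and 2221 CPM at D7 and at 4817, 5068 and 4163 CPM at D14, 2.24-fold higher with no overlap (adjusted p = 9.55e-09 by edgeR). The proteases Ctsl and Ctsa rose 1.95-fold and 1.83-fold (adjusted p = 1.48e-06 and 1.17e-05). Receptors for phagocytosis moved both ways, 7 of 22 higher (31.8%, against 4.29%) and 3 lower (13.6%, against 4.92%). Mfge8, which bridges phagocytes to dying cells, was at 52.7, 28.3 and 43.8 CPM at D7 and at 138, 111 and 110 CPM at D14 (2.83-fold, adjusted p = 8.94e-05 by edgeR). The scavenger receptor Msr1 rose 1.99-fold, and the Fc receptors Fcgr1 and Fcgr2b rose as well, while Marco, Cd36 and Mrc1 fell.

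Of 48 nuclear genes of oxidative phosphorylation 6 fell (12.5%, against 4.92% of all genes tested) and 0 rose (against 4.29%), and only 3 fell without D7 library 3, without D14 library 1 or without a filter on low counts. Atp5g3, a subunit of the ATP synthase ring, was at 1942, 1781 and 1909 CPM at D7 and at 924, 1086 and 1085 CPM at D14, 1.82-fold lower with no overlap (adjusted p = 4.27e-07 by edgeR). Of 8 genes of the mitochondrial genome 1 rose (12.5%, against 4.29%), mt-Nd4, from 6782 ± 514 to 9835 ± 1009 CPM. In the glycolysis list 1 of 16 rose (6.25%, near the 4.29% of all genes), the hexokinase Hk2, a call lost without D7 library 3. In the antioxidant list 3 of 24 fell (12.5%, against 4.92%) and 0 rose, and Gsto1 was the member with the smallest p, falling 1.71-fold. In the unfolded protein list 4 of 17 fell (23.5%, against 4.92%) and 0 rose, among them the transcription factors Atf3 (1.81-fold) and Atf4 (1.57-fold, not called without D14 library 2). Of 38 cell cycle genes 1 rose (Hmgb2) and 1 fell (Mcm7), 2.63% each and under the shares of all genes, both calls being lost in 5 of the 6 fits that left out a library. Mki67, the proliferation marker, was at 33.3, 25.7 and 11.2 CPM at D7 and at 37, 57.3 and 38.4 CPM at D14. Those groups were apart by a narrow margin, and the adjusted p was 0.117.

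Several of the largest changes lay outside these lists. Kcnk13, a potassium channel, had 0 counts at D7 and 132 at D14, with 16.5, 23 and 13.8 CPM at D14, so it was at least 11.5-fold higher (against 3 counts over the D7 group). Slamf7, a receptor of activated immune cells, had 3 counts at D7 and 303 at D14, a pooled ratio of 26.4 (counting interval 8.94 to 129). Igf2r, the mannose 6-phosphate receptor, had 3 and 140 counts, a ratio of 12.2 (4.09 to 59.8). Such intervals and floors cover counting error only. Hp, haptoglobin, was at 5.55, 5.15 and 4.30 CPM at D7 and at 54.0, 52.2 and 65 CPM at D14, 11.8-fold higher with no overlap (adjusted p = 2.12e-07 by edgeR). Tmem37 was at 0, 0 and 3.44 CPM at D7 and at 18.8, 22.2 and 26.9 CPM at D14. Among genes that fell, Kcnmb2, a regulatory subunit of a calcium-activated potassium channel, was at 730, 641 and 364 CPM at D7 and at 74.5, 106 and 83.0 CPM at D14. Its groups stood well apart despite the spread at D7, by 6.45-fold (log2 -2.69, SE 0.20, adjusted p = 8.93e-15). Stpg3 was at 108, 106 and 73 CPM at D7 and at 9.38, 16.4 and 17.6 CPM at D14, 6.29-fold lower (adjusted p = 1.67e-08 by edgeR). Cpne5, a calcium-binding copine, fell 5.04-fold from 141 ± 14.9 to 27.9 ± 3.89 CPM. Hdc, which makes histamine, and Jdp2, a repressor of AP-1, fell 5.84-fold and 4.96-fold, calls lost without D7 library 2 and without D14 library 3. Rhof and Rhebl1, small GTPase genes, fell 4.74-fold and 5.66-fold, calls lost without D7 library 3 and without D7 library 1 or 2. Kcnk13, Igf2r, Tmem37, Hdc and Rhebl1 passed the filter on low counts in only 2 of the 6 fits that left out a library.

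Markers of other cell types were summed per library. For endothelium the unscaled sum over 13 genes was 105 to 169 CPM at D7 and 58.8 to 105 CPM at D14. Of 7 tested members 2 fell (28.6%, against 4.92% of all genes tested) and 0 rose. Plvap, of capillary windows, was at 16.6, 7.72 and 12 CPM at D7 and at 3.31, 0.780 and 0.961 CPM at D14, and its call was lost without D7 library 1. Kdr, a receptor for VEGF, was at 61, 12.9 and 9.45 CPM at D7 and at 13.2, 1.17 and 4.80 CPM at D14. Those groups overlapped, D7 library 1 stood apart, and without it the log2 difference went from -2.03 to -0.81 and was not called, nor was it without D14 library 2 or 3. Without D14 library 1 it was -3.01. Aqp1, a water channel of endothelium and red cells, fell 6.33-fold and Clic5 5.93-fold. Red cell and platelet genes summed to 448 to 485 CPM at D7 and 188 to 368 CPM at D14, with Slc4a1, Gp9 and Gp1bb among the members at 0 in all 6 libraries. Hba-a2, alpha globin, was at 103, 90.1 and 84.2 CPM at D7 and at 32.5, 18.3 and 21.5 CPM at D14 (3.83-fold lower, adjusted p = 3.09e-06 by edgeR), and reads may be shared with Hba-a1, which fell 2.42-fold, a call lost without D14 library 2. For B cells the sum over 11 genes was 30.1 to 60.1 CPM at D7 and 73.1 to 259 CPM at D14. Jchain, of secreted antibody, carried this, with 19.4, 0 and 8.59 CPM at D7 and 34.2, 138 and 187 CPM at D14, although its call was lost without D7 library 3 and in the fit of the 6 libraries. Pou2af1, a coactivator known from B cells, had 0 counts at D7 and 93 at D14 and was at least 8.1-fold higher. Cd79a was at most at 1.28 CPM, unscaled, in each of the 6 libraries. In AM libraries of aged marrow, which were not compared here, Jchain and Pou2af1 were higher at D7 than at D14. Unscaled, Jchain was there at 45.8 to 56.0 CPM at D7 and 12.3 to 20.2 CPM at D14. Pou2af1 was at 14.6 to 27.8 CPM and 0 to 4.56 CPM in the same libraries.

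T cell genes other than Cd2 summed to 30.1 to 47.2 CPM at D7 and 47.6 to 59.1 CPM at D14, unscaled. Cd2 itself, which these alveolar macrophage sorts carried at a far higher level than Cd3e, was at 180, 198 and 195 CPM at D7 and at 52.4, 37.8 and 64.1 CPM at D14, 3.71-fold lower (adjusted p = 1.24e-08 by edgeR). Cd3e, unscaled, was at 0 in all 3 D7 libraries and at 0.567, 1.95 and 2.57 CPM at D14. The neutrophil sum was 2254 to 2790 CPM at D7 and 2626 to 2961 CPM at D14, nearly all of it Wfdc21 (2186 ± 304 and 2418 ± 182 CPM, TMM-scaled). Without that gene the sum was 244 to 295 CPM and 309 to 352 CPM, with Ly6g, Camp, Elane, Mpo and Stfa2l1 at 0 in all 6 libraries. Its members S100a9 and S100a8 went apart. S100a9 fell from 33.3, 23.2 and 27.5 CPM to 7.72, 8.97 and 4.16 CPM, and S100a8 rose from 142, 103 and 120 CPM to 181, 242 and 234 CPM (edgeR adjusted p = 0.00133 and 0.0018). Sums for lung epithelium were 191 to 260 CPM at D7 and 206 to 223 CPM at D14, with a median log2 difference of -0.032 over 7 tested members. Sums for fibroblasts were 236 to 287 CPM and 243 to 277 CPM, with a median of -0.30 over 7 tested members. NK cells summed to at most 27.3 CPM, and eosinophil and mast cell genes without Siglecf, which alveolar macrophages share, to at most 2.73 CPM at D7 and 3.97 CPM at D14, with Epx, Il5ra, Cpa3, Mcpt4, Fcer1a and Ms4a2 at 0. Dendritic cell genes summed to 273 to 311 CPM and 407 to 453 CPM, and 1 of 3 tested members rose (33.3%, against 4.29% of all genes tested). That member was Bst2, which is also in the interferon response list, with TMM-scaled means of 119.5 CPM at D7 and 265.2 CPM at D14. Irf8 and Mgl2, the other tested members, had log2 differences of -0.496 and -0.325 and did not pass. The sum without Bst2 is not given here. The part of these markers in the other results was not tested.

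Whether the change from D7 to D14 in AM differed from that in MoAM of young marrow (4 libraries at D7 and 3 at D14) was tested as an interaction over 13 libraries. Of 9478 genes tested 469 differed (4.95%), with a more positive change in AM for 266 and a less positive change for 203. The count was 276 without AM D7 library 3. Of the resident identity list 11 of 25 members had a less positive change in AM and 0 a more positive one. The reverse held for MHC class II genes (7 of 14 more positive and 0 less), monocyte-derived macrophage genes (7 of 19 and 0) and interferon response genes (6 of 37 and 0). Of 33 immediate early genes 13 were less positive in AM and 1 more positive. Other lists went both ways, among them profibrotic genes (7 of 24 more positive and 2 less) and lipid handling genes (2 of 29 more positive and 9 less). Over all 9478 genes tested the counts to set beside these were 266 more positive and 203 less.

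At the level of single genes, Ear1 and Fabp1 fell in AM and were far lower in MoAM on both days. In the MoAM libraries Fabp1 was at 3.65 ± 3.40 and 2.04 ± 2.40 CPM (n = 4 at D7 and 3 at D14), and its changes differed by -3.12 (log2, SE 0.79, adjusted p = 0.0117 by edgeR). There Ear1 was at 11.4 ± 6.97 and 9.61 ± 1.85 CPM, and the difference between the changes was -2.31 (log2, SE 0.35, adjusted p = 3.31e-06 by edgeR). Marco was nearly absent from MoAM, at 1.07 ± 2.15 and 1.38 ± 1.68 CPM. Cd36 had changes of opposite sign, with 153 ± 27.3 CPM at D7 and 280 ± 36.3 CPM at D14 in MoAM and a difference of -2.42 (SE 0.24, adjusted p = 5.84e-11). Nr4a1 likewise was at 465 ± 75.5 and 714 ± 82.5 CPM in MoAM, a difference of -1.80 (SE 0.20, adjusted p = 1.30e-09 by edgeR). H2-Ab1 was at 3926 ± 407 and 3879 ± 357 CPM in MoAM, above both AM groups, and the changes differed by 1.35 (SE 0.17, adjusted p = 1.15e-07). Apoe was at 3018 ± 256 and 3991 ± 124 CPM in MoAM, also above both AM groups, with a difference of 2.51 (SE 0.22, adjusted p = 3.82e-12 by edgeR). Mmp14, at 303 ± 25.6 and 346 ± 21.4 CPM in MoAM, differed by 3.56 (SE 0.34), and C1qa, at 1584 ± 52.8 and 2459 ± 176 CPM, by 1.82 (SE 0.26). For H2-Ab1, Apoe, Mmp14 and C1qa the AM mean at D14 was thus still under the MoAM mean at D7, although the log2 change in AM was the larger. Spp1 was at 2380 ± 506 CPM at D7 and 8423 ± 975 CPM at D14 in MoAM, and the change in AM was larger by 1.44 (SE 0.26, adjusted p = 0.00171 by edgeR). The AM mean was below that of MoAM at D7 and above it at D14, differences that were not tested at either day.

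Other changes did not differ detectably between the populations. Kcnmb2 fell in AM, and in MoAM it was at 630 ± 329 CPM at D7 and 83.2 ± 17.3 CPM at D14, with a difference of 0.27 (SE 0.70, adjusted p = 0.897 by edgeR). Stpg3 was at 125 ± 59.9 and 17.2 ± 2.35 CPM in MoAM, with a difference of 0.23 (SE 0.48, adjusted p = 0.86). Psap was at 2410 ± 349 and 5449 ± 321 CPM in MoAM, with a difference of -0.0039 (SE 0.17, adjusted p = 0.995 by edgeR), and Ctsl at 602 ± 104 and 1249 ± 139 CPM, with a difference of -0.11 (SE 0.19). Atp5g3 was at 1238 ± 162 and 661 ± 64.9 CPM in MoAM, with a difference of 0.055 (SE 0.17, adjusted p = 0.913). A p that misses the threshold does not show that the populations changed alike.

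**Figure D5:**
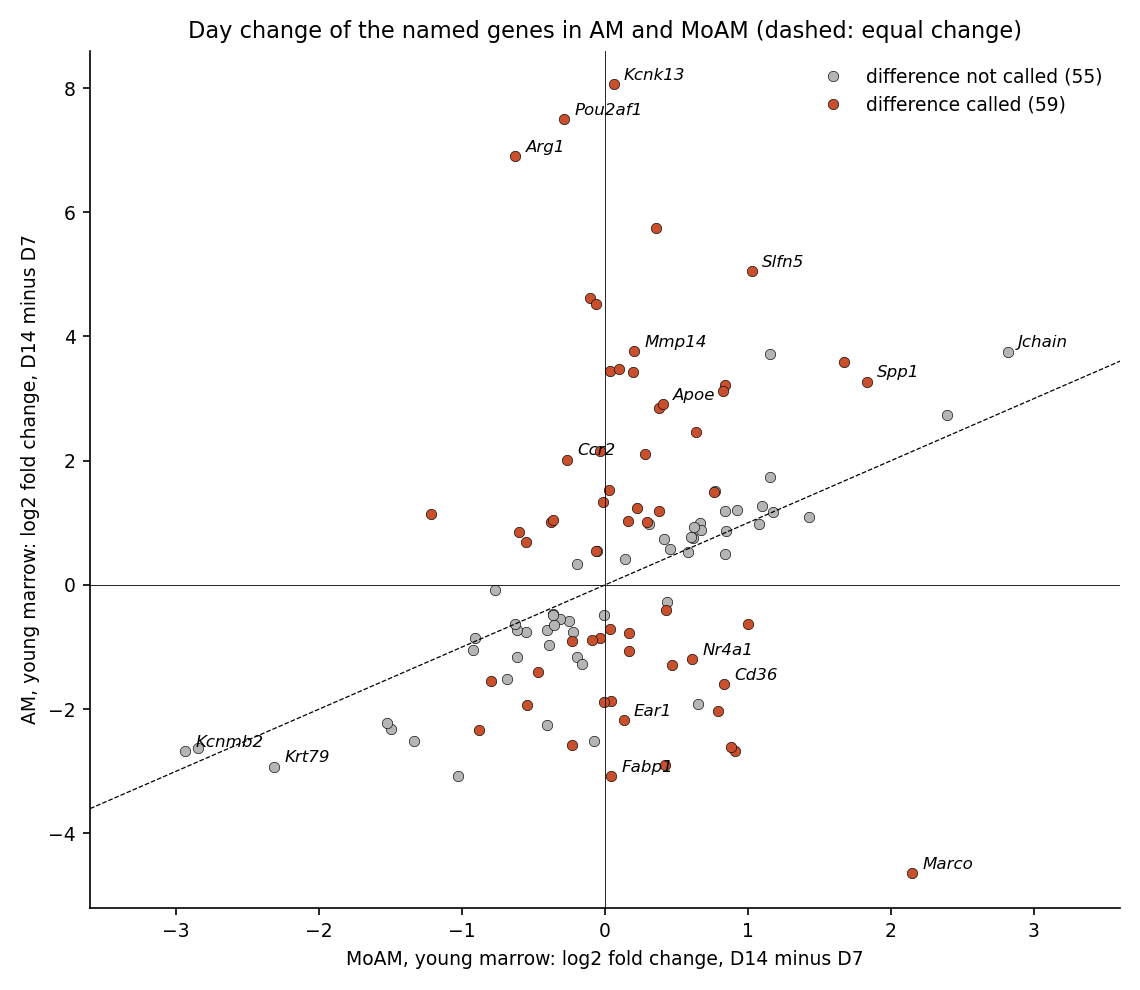
Log2 fold change of D14 over D7 in AM (vertical) against MoAM (horizontal), young marrow, for the 114 genes named by rule. Each point is a gene, orange for the 59 whose changes differed between the populations by the interaction test and grey for the rest, and the dashed line marks equal change. Marco lies lowest, at -4.64 in AM, Arg1 and Kcnk13 lie high near 0 on the MoAM axis, and Kcnmb2 lies close to the dashed line.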

How the data were processed

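Per the labels' protocols, lung cells were sorted, RNA was extracted with a micro-column kit and 3′ end libraries were made with a kit that adds molecular identifiers. The authors deposited raw counts of 19910 genes in 44 libraries, and the submitters' processing notes name the aligner STAR 2.7.9a, the trimmer Trim Galore 0.6.6, featureCounts, edgeR 3.36.0, Picard and FastQC, with the builds mm10 and GRCm39 in no stated role. Whether identifiers were collapsed, strand was used and multi-mapped reads were counted is not given in the sources used here. A CPM table was not used.

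Columns were assigned by position, as the report describes. The fit across all genes (edgeR 4.0.16 in R 4.3.3, filterByExpr with a minimum count of 10, TMM, robust quasi-likelihood, Benjamini-Hochberg adjustment) took 10 AM libraries, namely the 6 compared and the 4 of D7 with aged marrow, which share the estimate of spread. The 3 AM libraries of D14 with aged marrow carry another run number and were left out. The interaction fit took 13 libraries. Genes were named if they were among the 15 largest called, non-overlapping changes in a direction at a mean of 10 CPM or more, among the 4 called members of a list with the smallest p, among the 8 largest interactions in a direction, or in a panel of 31 genes. Other list members named were picked for their role after their values were seen. Predicted, histone and ribosomal protein genes were counted and not named. Some genes that met the rule are not reported here. Members and lists were chosen with earlier results of these data known. Alternatives were DESeq2 1.42.0, limma 3.58.1 (voom), other size factors, filters, libraries and assignment, a replicate block, and thinning. No 2 libraries held identical values. On simulated data the fit over 7599 genes recovered 40% of 2-fold and 91% of 4-fold changes with 9 false calls, and the interaction fit over 9478 genes recovered 28% and 68% with 6.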

Additional observations from a re-analysis of the deposited data

Results flagged for a closer look

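The genes below are those with the largest differences between the change from D7 to D14 in AM and that in MoAM, by the interaction test in edgeR. Each value is a difference of log2 changes, AM minus MoAM, in young marrow. A further 453 genes also differed and are given only as counts.

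Among the 8 genes with the most positive differences, 7 had 0 CPM in all 3 AM D7 libraries, so that their fitted values depend on the prior count and are no bounds. Arg1 is the exception, at 7.532 (SE 0.66, adjusted p = 8.08e-12). It went from 0.866 to 70.7 CPM in AM and from 239 to 154 CPM in MoAM. Kcnk13, at 8.006, went from 0 to 18.1 CPM in AM beside 32.4 and 36.8 CPM in MoAM. Lacc1, a regulator of macrophage metabolism, was at 7.415, from 0 to 10.4 CPM in AM and with 38.7 and 34.6 CPM in MoAM. Ccl22, a chemokine that draws regulatory T cells, was at 7.264, with 12.4 CPM in AM at D14 and 47.9 and 52.8 CPM in MoAM. Stx11, of vesicle fusion, was at 7.055, with 7.40 CPM in AM at D14 and 51.2 and 42.7 CPM in MoAM. Its call was lost without AM D7 library 3. Il12b, a chain of interleukin-12 and interleukin-23, was at 7.688, with 5.4 CPM in AM at D14 and 27.1 and 11.8 CPM in MoAM. Ankdd1a, at 7.132, and Pou2af1, at 7.787, were the least stable of the 8. The Ankdd1a call was lost under the replicate block and without AM D7 library 3, AM D14 library 2 or MoAM D14 library 3. The Pou2af1 call was lost with limma voom and in 7 of the fits that left out a library. At D14 each of Arg1, Kcnk13, Lacc1, Ccl22, Stx11, Il12b and Ankdd1a was still lower on average in AM than in MoAM, and Pou2af1 was higher in AM (12 against 5.57 CPM).

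Among the 8 most negative differences were structural genes of mesenchyme and vessels at low levels. Mxra8, a matrix remodelling protein, was at -7.031 (SE 1.42, adjusted p = 0.000741 by edgeR), with 12.5 and 0.327 CPM in AM and 1.05 and 7.69 CPM in MoAM. Col1a1, of type I collagen, was at -3.973, with 16.6 and 3.79 CPM in AM and 2.79 and 15.9 CPM in MoAM. Col4a2, of basement membrane collagen, was at -3.521, with 8.08 and 2.04 CPM in AM and 6.61 and 19.4 CPM in MoAM. Its call was lost with limma voom and without AM D7 library 3, where the difference was -2.74. Aqp1 was at -3.587 and Clic5 at -3.496, both lower at D14 in AM and with higher means at D14 in MoAM. Plvap, at -3.327, had an adjusted p of 0.0483 in the edgeR fit, and its call was lost under the replicate block and in 10 of the fits that left out a library. Marco was at -6.789, made of -4.64 in AM and a fitted 2.15 in MoAM, where it was at 1.07 and 1.38 CPM, and was at -5.08 without MoAM D14 library 2, where it was not called (adjusted p = 0.0617 by edgeR). Ifitm6, an interferon-induced membrane protein of myeloid cells, was at -3.185. MoAM had 29.1 and 93.6 CPM on average and AM had 4.35 and 1.71 CPM, and the call was lost with limma voom and without AM D7 library 3.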

How the results depend on the processing

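Genes named by rule and called in the day comparison kept their direction in every alternative that tested them, except the assignment of columns by printed header. Of 107 named genes that were called, 75 were called in each fit without 1 library in which they were tested. Only 67 were tested in all 6 such fits and called in all. Kcnk13, Pou2af1, Pdgfa, Ifit2, Tmem37, Igf2r, Clic5 and Plvap were tested in only 2 of the 6. Against 700 calls, limma voom gave 1183 (542 higher and 641 lower), the fit of the 6 libraries alone 1097 (535 and 562), an adjusted p of 0.01 gave 388 (167 and 221), and thinning to equal depth gave 440 (188 higher). DESeq2 gave 707, RLE size factors 707, no filter 615 and all 13 AM libraries 718. Leaving out 1 library gave 407 to 612 calls, 180 to 276 higher and 227 to 336 lower. Interferon genes higher numbered 16 with 6 libraries, 5 when thinned and 5 to 9 without 1 library. The same range was 8 to 10 for resident genes lower, 11 to 14 for profibrotic genes higher and 11 to 13 for immediate early genes lower. Interaction calls ranged from 276 to 480 without 1 library and were 547 with DESeq2, 487 with RLE size factors, 389 with limma voom and 475 without a filter, against 469. In these fits, the cause of each shift was not tested.

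The sources used here do not say whether a replicate number marks a shared animal, day or batch. Deviations of libraries with the same number had correlations of 0.0124, -0.0267 and 0.0119. These were taken over all genes tested and include counting error, so low values cannot exclude a pairing. With the number as a replicate block, 866 genes were called (422 higher and 444 lower), 14 interferon genes were higher, and 378 interactions were called.

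With columns taken by printed header, 592 genes were called, 202 of them lower, and 99 were shared with the 700, of which 56 had the same direction. Then 0 resident genes were lower, 4 profibrotic genes higher, 0 interferon genes higher and 2 immediate early genes lower. Changes of sign were listed for genes named by rule only, and those of genes not called under either assignment may be missing. Among the log2 differences that changed sign were 1.36 for Siglecf (not called under either assignment), -1.65 for Pou2af1, -0.21 for Pdgfa, -0.31 for Mmp14, -1.22 for Jchain, 1.38 for Kcnmb2, 0.53 for Aqp1, 1.67 for Stpg3, 0.67 for Ear1, 0.99 for Chil3, -0.066 for C1qa, -0.55 for Rsad2, 0.66 for Nfkbia and 0.81 for Tnf. For Nlrp3 it was 0.38, Il1a 0.075, Tgm2 0.22, Mcm7 1.70, Hmgb2 -0.54, Cd36 0.79, Angptl4 1.26, Atp5g3 2.12, Atp5b 1.19, Ndufb10 0.84, Cox5a 0.23, Gsto1 2.25, Atf3 1.87, Calr 0.49, Nr4a2 0.052, Nr4a1 0.56 and Fosb 0.55. For S100a9 it was 1.28, Hba-a2 5.06, Hba-a1 4.10, Hbb-bs 5.92, Fabp4 -0.66, Ear2 2.92, Mrc1 0.48, Gpnmb -0.068, Cxcl2 1.95 and Il1b 1.36.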
